A study of Mus musculus with 27 samples.

Results

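Interferon gamma (IFNγ) was compared with buffer in retinal ganglion cells that lacked the phosphatase gene Ptpn2. The comparison was chosen by the libraries' labels: 3 libraries of knockout cells with IFNγ against 3 libraries of knockout cells with PBS, which are 6 of the 12 retinal libraries and 6 of the 27 libraries of the series. All 55367 named genes of the retinal count table were considered. A further 3 wild-type libraries with PBS and 3 with IFNγ shared the model and served the test of whether the IFNγ difference depended on genotype.

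Retinal ganglion cells are the neurons whose axons form the optic nerve, and in adult mammals they seldom regrow a cut axon. IFNγ binds a receptor of Ifngr1 and Ifngr2 chains, on which the kinases Jak1 and Jak2 start the signal. Genes that respond to it often carry the GAS element in their promoters, and interferon regulatory factors act on the ISRE element. Ptpn2 encodes a tyrosine phosphatase that removes phosphate from JAK kinases and their targets and so limits this signal. Typical products are GTPases that attack the vacuoles of intracellular microbes, the machinery of antigen presentation, and chemokines.

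Every mouse of the retinal experiment carried floxed Ptpn2 alleles, per the series' design text, and received a viral vector (AAV) in the eye 2 weeks before the optic nerve was injured. The knockout groups are those given AAV-Cre and the wild-type groups those given AAV-GFP, as far as the text pairs them. IFNγ or PBS was injected at the time of injury and cells were taken 3 days after it, so no uninjured group was compared. The labels call the cells retina ganglion cells. Their protocol speaks of single cells moved to lysis buffer and smart-seq2 amplification of polyadenylated RNA. How many cells went into a library, the age of the mice, the promoter of the Cre vector and whether replicates were separate animals are not given in the sources used. P-values therefore measure only the spread between these libraries.

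The promoters below are shown because Igtp, Irgm1 and B2m stand for the GTPase and antigen-presentation genes that carry most of the account, and they were picked after their values were seen. Each runs from 250 bases before to 50 bases after the gene's start (RefSeq, GRCm38.p6), 5′ to 3′ on the gene's strand, and the capitals mark GAS or ISRE matches. The letters searched were TTCNNNGAA for GAS and GAAA, any 2 bases, GAAA or its reverse complement for ISRE, on both strands, and matches may overlap. The first is Igtp at chr11:58199306-58199605, plus strand.
Igtp: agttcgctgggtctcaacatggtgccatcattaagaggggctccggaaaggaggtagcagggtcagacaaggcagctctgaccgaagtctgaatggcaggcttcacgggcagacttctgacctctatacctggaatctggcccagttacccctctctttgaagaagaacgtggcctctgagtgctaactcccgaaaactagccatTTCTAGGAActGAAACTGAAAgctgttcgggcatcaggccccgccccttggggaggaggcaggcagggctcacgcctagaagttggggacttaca
The promoter of Irgm1 lies at chr11:48871371-48871670, minus strand.
Irgm1: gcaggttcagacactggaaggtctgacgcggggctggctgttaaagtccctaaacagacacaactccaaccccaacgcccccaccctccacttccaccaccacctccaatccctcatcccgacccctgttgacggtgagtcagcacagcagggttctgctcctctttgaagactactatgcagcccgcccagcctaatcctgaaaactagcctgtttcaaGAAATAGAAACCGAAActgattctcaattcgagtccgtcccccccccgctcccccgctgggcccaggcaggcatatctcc
That of B2m lies at chr2:122147437-122147736, plus strand.
B2m: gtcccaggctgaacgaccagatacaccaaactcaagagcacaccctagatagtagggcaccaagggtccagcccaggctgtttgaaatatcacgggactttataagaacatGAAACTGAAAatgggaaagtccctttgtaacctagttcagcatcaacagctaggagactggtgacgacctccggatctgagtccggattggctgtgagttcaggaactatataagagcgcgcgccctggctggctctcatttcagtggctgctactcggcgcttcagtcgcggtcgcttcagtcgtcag
Igtp holds a GAS match whose first base is at -45 from the start and an ISRE match at -34. Irgm1 holds 2 overlapping ISRE matches, at -30 and -24, and B2m holds 1 at -139. An ISRE match was found in 10 of 10 promoters of the GTPase list and a GAS match in 6 of 10, against 3.993% and 9.554% of the promoters of all 27025 genes in the table. The type I interferon list held an ISRE match in 13 of 23 promoters and a GAS match in 8 of 23. The class I antigen presentation list held them in 4 and 0 of 13, and the regeneration list in 1 and 1 of 23. Promoters searched but not printed were those of Oasl2, Psmb9 and Tap1, with neither match, and of Gbp3 and Ifit2. A promoter of Gbp3 held ISRE matches and a promoter of Ifit2 a GAS match. Stmn2 and Gap43 have no entry. These matches are letters in a window and do not show that a factor was bound.

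Before the results, 2 of the 3 knockout PBS libraries must be described. The retinal libraries held 13239988 to 17122057 counts. Knockout PBS replicate 1 had the fewest detected genes of the 6 (11508), and replicate 2 the most (13520), while replicate 3 had 12166 and the IFNγ libraries 13205 to 13465. Replicate 2 also had the lowest mean Spearman correlation with the other 11 libraries (0.680). It held microglia markers that were nearly missing elsewhere: Cx3cr1, a chemokine receptor of microglia, stood at 0, 598 and 0 CPM in the 3 PBS libraries and at 0.491, 0 and 0.182 CPM with IFNγ. CPM here are counts divided by the library's TMM-scaled total over the tested genes, times 1e6. C1qb, a complement subunit of microglia, stood at 0, 877 and 0 CPM with PBS and at 0.573, 0.193 and 0 CPM with IFNγ. Summed over 17 markers of microglia and macrophages, the level was 5271 CPM in PBS replicate 2, with 1 marker at 0. It was 54.0 and 26.4 CPM in the other PBS libraries and 9.41 to 25.8 CPM in the IFNγ libraries, with 7 to 14 of the 17 at 0 in those 5. What part these transcripts had in the results was not tested, and the list medians are given with and without PBS replicates 1 and 2, over the same genes.

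**Figure D1:**
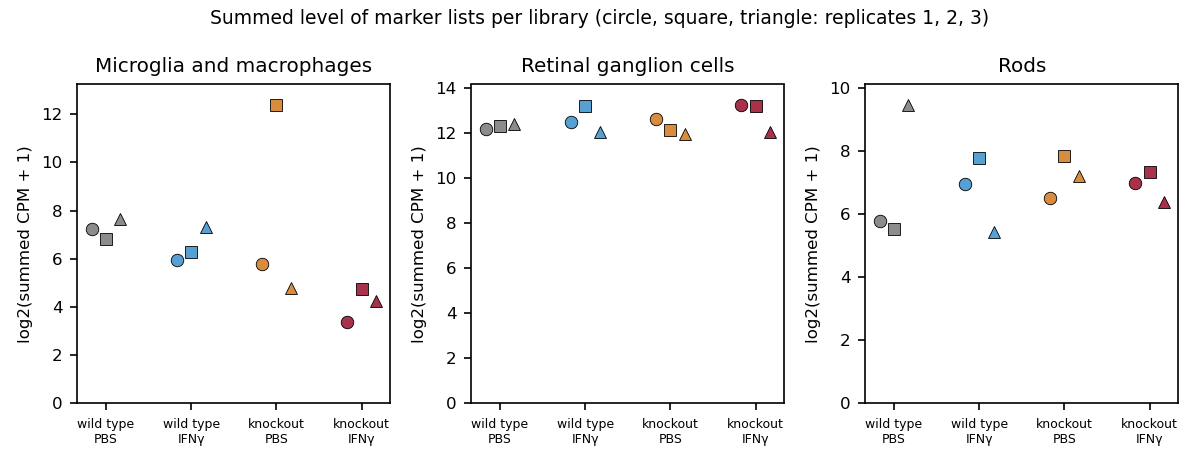
Summed level of the marker lists of microglia and macrophages, retinal ganglion cells and rods in the 12 retinal libraries, as log2(summed CPM + 1) by group, 1 point per library. Knockout PBS replicate 2 stands at 5271 CPM of microglia markers, and the other knockout libraries at 9.41 to 54.0 CPM.

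Markers of the cells themselves were present throughout. Ganglion cell markers summed to 4051 to 6315 CPM in the PBS libraries and 4289 to 9706 CPM in the IFNγ libraries, and the groups overlapped. Sncg, gamma-synuclein, stood at 2054, 1476 and 1375 CPM with PBS and at 3095, 3666 and 1725 CPM with IFNγ. Slc17a6, the glutamate transporter of these neurons, was present in all 6 (133 to 636 CPM). The ganglion cell transcription factor Pou4f2 was low, at 3.98, 15 and 0 CPM with PBS and 3.11, 6.3 and 0 CPM with IFNγ. Summed rod markers stood at 82.3 to 225.7 CPM in the 6 knockout libraries, Müller glia and astrocyte markers at 727 to 4623 CPM, of which Clu made up the larger part in 5 of 6, and cone, T and NK cell, endothelial, red blood cell and myelin markers each at 26.2 CPM or less. Bipolar and amacrine markers summed to at most 126.7 and 81.5 CPM. Where a library holds more than a single cell, a larger share of cells of a type and more RNA per cell cannot be told apart. The share of the ribosomal entry CT010467.1 was 22.1% to 31.8%. This share, the mitochondrial share, total counts and detected genes gave adjusted p = 0.8 to 0.9 in exact two-sided permutation tests between the groups. With 3 against 3 such a test cannot go below 0.1. The TMM factor was not among these measures, and it did separate the groups. All 3 knockout IFNγ libraries (0.866, 1.002 and 1.154 by replicate) had a smaller factor than any knockout PBS library (1.164 to 1.197). A smaller factor raises a library's CPM, here most in IFNγ replicate 1. With DESeq2 size factors in its place 0 genes passed, and the median of all genes was -0.005. Beyond that, the factor's part in the results was not tested.

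Ptpn2 itself stood at 10.1, 8.07 and 7.71 CPM with PBS and at 15.5, 0 and 23.9 CPM with IFNγ, and at 10.5, 7.26 and 3.39 CPM in wild type with PBS. These levels overlap. The gene count covers the whole transcript, so it does not check the loss of a floxed part, and the genotype rests on the labels.

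No gene passed the test of IFNγ against PBS in knockout cells. Of 13487 genes tested with edgeR's quasi-likelihood test, 0 (0%) had an adjusted p under 0.05. At an unadjusted p under 0.05 there were 588 genes with more counts with IFNγ (4.36%) and 291 with fewer (2.16%), and these shares are the background for the gene lists below. The 3 IFNγ libraries were all above the 3 PBS libraries for 829 genes (6.15%) and all below for 514 (3.81%). The median log2 fold change was 0.01. The biological coefficient of variation was 1.27. DESeq2 on the same counts called 223 genes higher (1.74%) and 93 lower (0.727%), 316 in all (2.47% of 12792 with an adjusted p). Of those 316, 223 had 0 counts in all 3 libraries of a group, 125 had a fitted log2 over 20 in size, and in 142 the groups did not overlap. Without PBS replicates 1 and 2, edgeR called 2 of 17592 genes (0.0114%), Cdr1os and Nfe2l2, both higher with IFNγ, and the median over the same 13487 genes was 0.36. In that fit the single PBS library is assumed to vary like the other groups.

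Igtp and Irgm1, GTPases that IFNγ classically induces, were detected in all 6 knockout libraries, with and without added IFNγ. Igtp, an immunity-related GTPase (chromosome 11, 58199556 to 58207591, plus strand, GRCm38), stood at 199, 356 and 40.3 CPM with PBS and at 161, 147 and 222 CPM with IFNγ. All 3 IFNγ libraries lie inside the range of the PBS libraries. In wild type it stood at 0, 9.9 and 0.0738 CPM with PBS and at 0, 3.97 and 19.8 CPM with IFNγ, below every knockout library. Its log2 difference in knockout cells was -0.17 ± 1.52, with a 95% interval from -3.42 to 3.09, which spans both directions. Irgm1, a relative of Igtp that guards membranes of the cell itself, stood at 60.7, 217 and 22.5 CPM with PBS and 102, 67.8 and 57.6 CPM with IFNγ (-0.40 ± 0.92).

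PBS replicate 2 was the highest of the 3 PBS libraries for 11 of 11 GTPases tested, against 35.1% of all genes tested, and the highest of all 6 for 7 of 11. Gbp2, a guanylate-binding protein, was at 0, 92.4 and 0 CPM with PBS and at 56.7, 21.6 and 8.96 CPM with IFNγ. Gbp7, of the same family, was at 10.3, 47.4 and 0 CPM with PBS and 77.7, 29.8 and 15.9 CPM with IFNγ. For both genes the 3 IFNγ libraries were above PBS replicates 1 and 3, while PBS replicate 2 was above all 3 for Gbp2 and above 2 of 3 for Gbp7. Of the 17 GTPases listed, 11 passed the filter on low counts. Of these, 0 were under an unadjusted p of 0.05 in either direction, 0 had groups that did not overlap, and the median log2 difference was -0.08. Without PBS replicate 2 alone the median was 1.94 and without replicates 1 and 2 it was 3.69. Setting the 4 genes at 0 in PBS replicate 3 to their bound of 3 counts could not move it, as they rank above it. This middle value is that of Gbp9, at 1.56 CPM in PBS replicate 3 and at 61.5, 0.0643 and 0 CPM with IFNγ. The value of Gbp9 thus rests on 1 IFNγ library. Next to it in rank, in the fit of 17592 genes, were Gbp6 at 2.80 and Gbp3 at 4.36. Both were present in all 3 IFNγ libraries. Without replicate 2 alone 1 of the 11 was under the unadjusted p, higher with IFNγ, as were 752 of all 13487 genes. Without PBS replicates 1 and 2 the log2 difference was 2.10 ± 3.16 for Igtp and 1.72 ± 1.35 for Irgm1. Several Gbp genes are close copies, and how the authors' counting treated reads shared between them is not given in the labels.

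**Figure D2:**
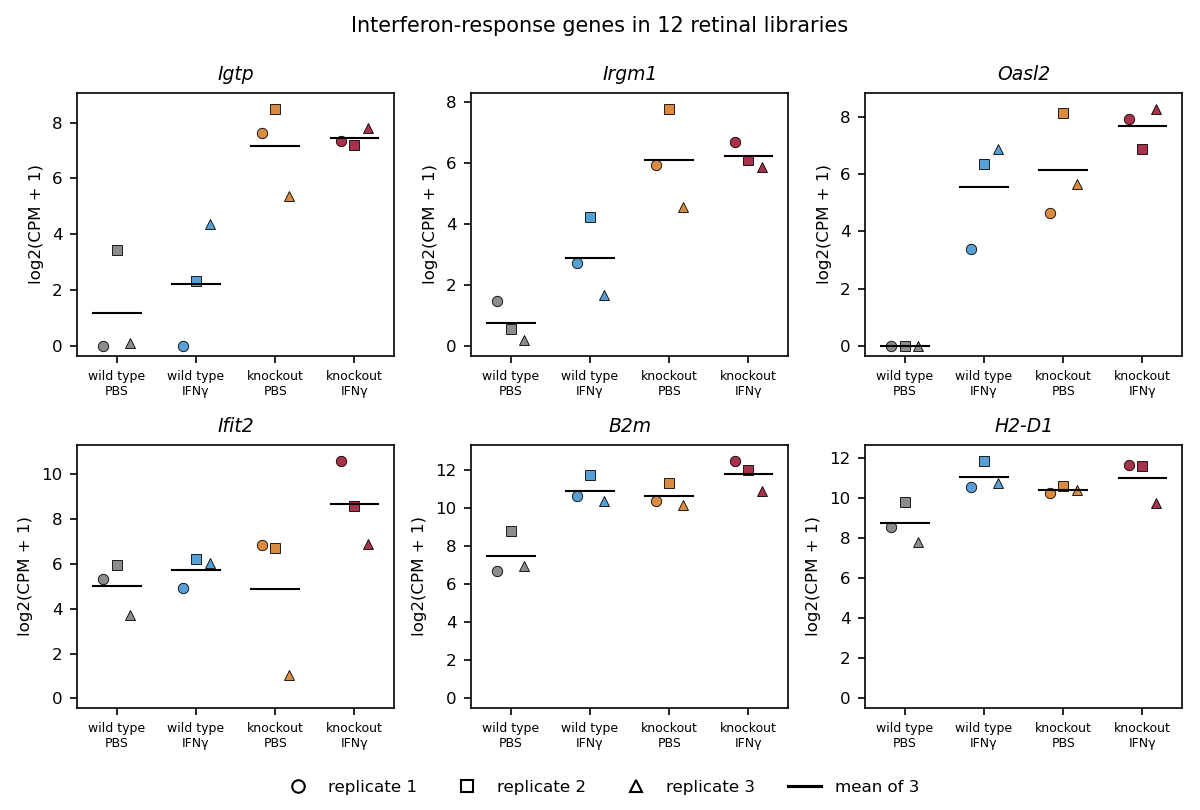
Level of 6 interferon-response genes as log2(CPM + 1) in the 12 retinal libraries, by group; points are libraries, with the replicate given by the symbol, and bars are means of 3. Igtp and Irgm1 overlap between the knockout groups, whereas the 3 IFNγ libraries of Ifit2 are all above the 3 PBS libraries.

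Genes known from the type I interferon response had the highest median of the 16 pathway lists with all libraries, 1.67 over 24 tested of 32 listed. Of the 24, 21 had a positive difference, and 4 had an unadjusted p under 0.05, all higher with IFNγ. Of all 13487 genes tested, 6823 had a positive difference, and 4.36% were higher under that p. Ifit2, which binds RNA and restrains translation, stood at 114, 105 and 1.06 CPM with PBS and at 1524, 377 and 116 CPM with IFNγ. The groups did not overlap, but the lowest IFNγ library was close to the highest PBS library. The difference was 3.20 ± 1.20 (edgeR adjusted p = 0.729), and 9.27 ± 1.82 (edgeR adjusted p = 0.131) without PBS replicates 1 and 2, where it rests on PBS replicate 3, the lowest library.

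The other genes under that p were named after their values were seen. Ifit3b was at 0 in the 3 PBS libraries and at 23.4, 12.4 and 0 CPM with IFNγ, at least 69.4-fold higher by the bound of 3 counts per library. Ifi44 was at 57.9, 0 and 0 CPM with IFNγ and at 0 with PBS, so its value rests on 1 library. Trim30a was at 0, 0.241 and 0 CPM with PBS and at 81.7, 7.14 and 0 CPM with IFNγ. None of the 3 was present in every IFNγ library. Together with Socs2, the first 2 were the list members that DESeq2 called, 3 of 192 over the pathway lists. It called 2.47% of all genes with an adjusted p.

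Oasl2, an oligoadenylate synthetase-like protein, stood at 24, 279 and 49.2 CPM with PBS and at 243, 117 and 307 CPM with IFNγ, overlapping groups. It was at 0 in all 3 wild-type PBS libraries. Without overlap and higher with IFNγ were Ifit2, Xaf1 (21.1, 14.7 and 11.8 CPM with PBS against 51.9, 42.8 and 42.5 CPM with IFNγ) and Bst2 (0.56, 2.29 and 0.447 CPM with PBS against 10.3, 3.41 and 3.57 CPM with IFNγ), 3 of 24, where the background is 6.15%. Without PBS replicates 1 and 2 the median of the list was 9.39, but 16 of the 24 genes were at 0 in the remaining PBS library, and with those at their bound it was 5.19. None of the 24 then passed. With replicate 2 alone left out the median was 3.58, and 10 of the 24 were under the unadjusted p, all higher with IFNγ, as were 752 of all 13487 genes.

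Genes of the receptor and its signalling overlapped between the groups in 9 of 10 cases. The 1 without overlap was higher with IFNγ (10%, against 6.15% of all genes tested). Ifngr2 stood at 64.5, 68.2 and 65.6 CPM with PBS and at 139.9, 40.3 and 84.7 CPM with IFNγ. Jak2 was at 0, 8.67 and 0 CPM with PBS and 63.1, 14.7 and 9.26 CPM with IFNγ, without overlap (edgeR adjusted p = 0.894). Stat3, a factor that many cytokine receptors activate, was at 159.9, 15.1 and 35 CPM with PBS and 114, 70.2 and 108 CPM with IFNγ, with overlap. Of 10 genes tested in this list, 0 were under an unadjusted p of 0.05, and the median log2 difference was 0.45. The median was 1.57 without PBS replicates 1 and 2 and 1.42 without replicate 2 alone. Without replicate 2 alone 2 genes were under that p, higher with IFNγ, as were 752 of all 13487 genes.

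Among 10 tested negative regulators of the pathway, the median was 0.46, and 0.49 without PBS replicates 1 and 2 (0.81 without replicate 2 alone). Socs2, a suppressor of cytokine signalling, stood at 0, 6.62 and 2.35 CPM with PBS and at 86.5, 53.3 and 8.29 CPM with IFNγ (4.04 ± 1.36, edgeR adjusted p = 0.729), without overlap. Usp18, which removes Isg15 from proteins, was at 0, 2.89 and 12.1 CPM with PBS and 70.5, 45.4 and 23 CPM with IFNγ, also without overlap. Pias1, a SUMO ligase, was the 1 gene of the list below all PBS libraries, at 52.4, 65.7 and 59.5 CPM with PBS against 16.2, 30.2 and 20.1 CPM with IFNγ. In this list 2 of 10 genes were thus higher without overlap (20%, against 6.15% of all genes tested). The 1 lower gene stands against 3.81% of all genes tested. Socs1 and Socs3, the suppressors most linked to IFNγ, overlapped, as did Cish and the phosphatase Ptpn1 (19.7, 103 and 10.4 CPM with PBS and 69, 31.3 and 65.6 CPM with IFNγ).

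Interferon regulatory factors did not separate the groups either. Irf1, the factor that IFNγ induces first, stood at 0.392, 67.2 and 6.31 CPM with PBS and at 13.1, 4.7 and 35.7 CPM with IFNγ. Irf9 stood at 114, 90.2 and 18.5 CPM with PBS and 57.9, 101.4 and 64.2 CPM with IFNγ. Irf8, which microglia use as a lineage factor, was at 0, 132 and 0 CPM with PBS, in the library with the microglia markers, and at 9.33, 0 and 0 CPM with IFNγ. It did not pass the filter. Over the 5 factors tested the median was -0.40 with all libraries and 1.49 without PBS replicates 1 and 2.

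Class I antigen presentation genes were higher with IFNγ in most values but not past the spread. B2m, the invariant chain that pairs with each class I heavy chain, stood at 1317, 2590.0 and 1136 CPM with PBS and at 5611, 4087 and 1873 CPM with IFNγ. Its lowest IFNγ library lies below PBS replicate 2. The difference was 1.20 ± 0.59 (95% interval -0.08 to 2.47; edgeR adjusted p = 0.729). H2-D1, a heavy chain, stood at 1203, 1545 and 1357 CPM with PBS and 3149, 3051 and 868 CPM with IFNγ, with 2 IFNγ libraries above and 1 below all PBS libraries. H2-K1 had the same order, at 999, 1061 and 635 CPM with PBS and 2412, 2342 and 388 CPM with IFNγ. Heavy chain genes share much sequence, so their separate counts are uncertain.

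In all, 16 of 17 class I genes had a positive difference, 0 had an unadjusted p under 0.05, and 1, the peptide trimmer Erap1, did not overlap (0, 3.49 and 4.36 CPM with PBS against 30, 7.08 and 8.29 CPM with IFNγ). That 1 gene is 5.88% of the list, near the 6.15% of all genes tested. Over all genes tested, 6823 differences were positive and 6571 negative. The median of the list was 0.55, and 0.96 without PBS replicates 1 and 2. The peptide transporter Tap1 stood at 47.6, 67.1 and 26.2 CPM with PBS and 45.3, 50.5 and 69.9 CPM with IFNγ. Immunoproteasome subunits had a median of 0.30 over 5 genes, and 0.68 without those libraries. Psmb8, a catalytic subunit, stood at 60.3, 95.3 and 60.1 CPM with PBS and 235, 64.1 and 27.3 CPM with IFNγ, and Psme2, of the proteasome activator, at 135, 149 and 72.9 CPM with PBS and 115, 65.7 and 67.6 CPM with IFNγ. Class II genes were low in both groups: H2-DMa stood at 38.6, 67.2 and 15.7 CPM with PBS and 27.7, 9.07 and 22.1 CPM with IFNγ and H2-Ab1 at 13, 11.7 and 0 CPM with PBS and 8.02, 10.9 and 5.69 CPM with IFNγ, with a median of -0.62 over 4 genes. The direction of that median turned to 8.10 without PBS replicates 1 and 2, where 3 of the 4 genes were at 0 in the remaining PBS library, and to 3.79 with those at their bound. It was -0.03 without replicate 2 alone.

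Chemokine genes were mostly at or near 0 outside PBS replicate 2. Ccl4, a chemokine of myeloid cells, was at 0, 291 and 0 CPM with PBS and at 0.327, 0.129 and 0 CPM with IFNγ, and Tnf was at 0, 167 and 0 CPM with PBS and 0.245, 0 and 11.6 CPM with IFNγ. Cxcl9 was at 0 in all 6 libraries, and Cxcl10 was at 0, 10.5 and 0 CPM with PBS and at 0 with IFNγ, although both are typical IFNγ targets. Of 19 listed genes 6 were tested, and 2 had an unadjusted p under 0.05, both lower with IFNγ, against 2.16% of all genes tested. Their median of -2.78 turned to 4.39 without PBS replicates 1 and 2 (2.22 with the 3 genes at 0 in the remaining PBS library, and the gene at 0 with IFNγ, at their bounds) and to 4.90 without replicate 2 alone. Il1b was at 0, 30.5 and 4.91 CPM with PBS and at 0 with IFNγ.

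Cx3cl1, the membrane-bound chemokine through which neurons contact Cx3cr1 on microglia, stood at 323, 277 and 526 CPM with PBS and at 32.6, 90.9 and 209.9 CPM with IFNγ. All 3 IFNγ libraries were below all 3 PBS libraries. The difference was -1.75 ± 0.60 (edgeR adjusted p = 0.729), -2.27 ± 0.75 without PBS replicates 1 and 2, and -1.92 without replicate 2 alone. Other IFNγ-induced effectors had a median of 0.24 over 9 genes, against 2.69 without PBS replicates 1 and 2 and 3.08 without replicate 2 alone. Lgals3bp, a secreted glycoprotein, stood at 122, 477 and 22.5 CPM with PBS and 475, 135 and 53.2 CPM with IFNγ, and Serping1, the inhibitor of complement C1, at 76.3, 319 and 9.22 CPM with PBS and 79.9, 65 and 24.5 CPM with IFNγ. In both, PBS replicate 2 was the highest PBS library.

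**Figure D3:**
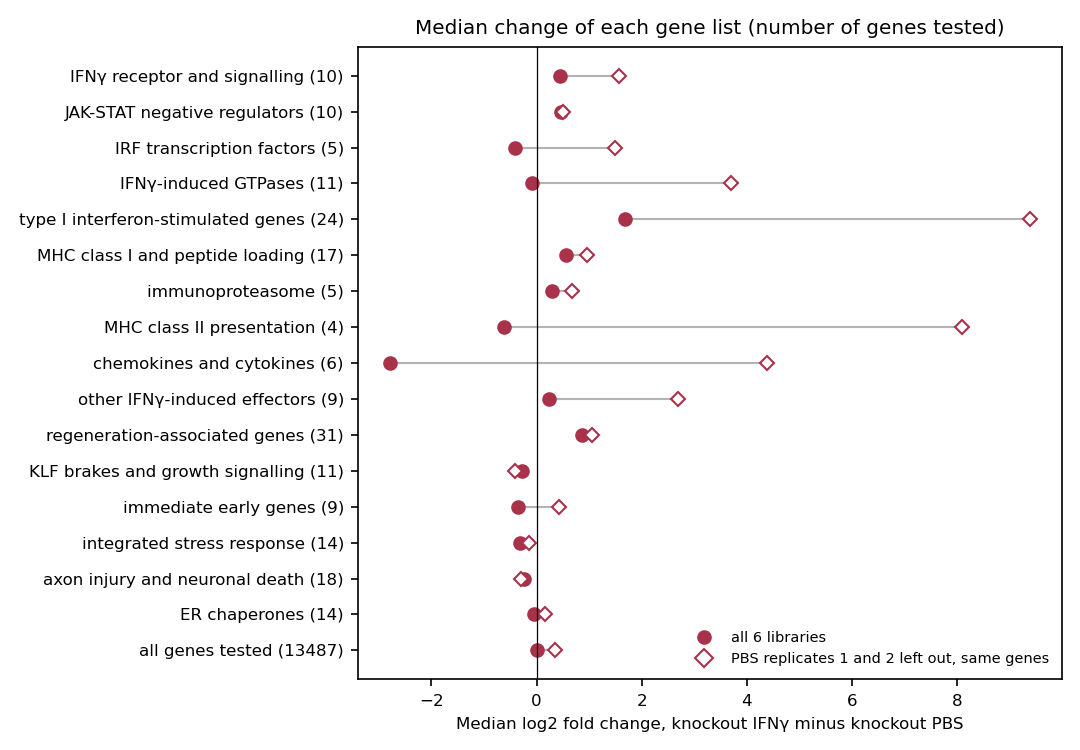
Median log2 fold change (knockout IFNγ minus knockout PBS) of each gene list and of all genes tested, with all 6 libraries (filled) and with PBS replicates 1 and 2 left out (open, same genes); the number of genes tested is in brackets. The GTPase list moves from -0.08 to 3.69 and the regeneration list from 0.86 to 1.05, with all genes at 0.01 and 0.36; open values include genes at 0 in the remaining PBS library, 16 of 24 in the type I interferon list.

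Most growth-associated genes of injured neurons had a positive log2 difference, 24 of 31, against 6823 of all 13487 genes, and none passed the adjusted test. Stmn2, which binds tubulin in growth cones (chromosome 3, 8509360 to 8561606, plus strand), stood at 743, 384 and 379.6 CPM with PBS and at 3259.7, 895 and 731 CPM with IFNγ. The highest PBS library lies between the lowest and the next IFNγ library, and IFNγ replicate 1 was far above all other knockout libraries. The difference was 1.70 ± 0.53 (95% interval 0.56 to 2.84; edgeR adjusted p = 0.729), and 2.08 ± 0.81 without PBS replicates 1 and 2. Wild-type libraries held 1949, 1311 and 1955 CPM with PBS and 1641, 2774 and 1299 CPM with IFNγ, so that 5 of 6 knockout libraries were below every wild-type library.

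Gap43, a protein of growth cone membranes (chromosome 16, 42248442 to 42340651, minus strand), stood at 1219, 487 and 739 CPM with PBS and at 2414, 1204 and 1066 CPM with IFNγ. PBS replicate 1 was above 2 of the 3 IFNγ libraries. The difference was 0.94 ± 0.47 (95% interval -0.07 to 1.94; edgeR adjusted p = 0.729), and 1.05 ± 0.66 without replicates 1 and 2. Ecel1, an endopeptidase induced by nerve injury, stood at 209.6, 907 and 1398 CPM with PBS and 3197, 1607 and 1464 CPM with IFNγ without overlap (1.32 ± 0.72, and 0.55 ± 0.85 without replicates 1 and 2).

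Of 33 genes listed as regeneration-associated, 31 were tested. The median was 0.86, and 7 had an unadjusted p under 0.05 with higher values (22.6%, against 4.36% of all genes), none with lower values. Besides Stmn2 these were named after their values were seen. Atf3, a transcription factor of the axon injury response, stood at 424, 379 and 524 CPM with PBS and at 1155, 1119 and 943 CPM with IFNγ, without overlap (1.28 ± 0.42, edgeR adjusted p = 0.729). Tubb2b, a beta-tubulin, stood at 76.5, 34.8 and 42 CPM with PBS and 164, 216 and 101.4 CPM with IFNγ, also without overlap (1.65 ± 0.54, edgeR adjusted p = 0.729).

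Basp1, a growth cone protein related in function to Gap43, stood at 47.5, 57.2 and 57 CPM with PBS and 132, 80.5 and 80.6 CPM with IFNγ, and Crmp1, a mediator of semaphorin signals, at 212, 836 and 430.4 CPM with PBS and 1270.3, 1019.6 and 1188 CPM with IFNγ. Both were without overlap. Tuba1a stood at 1227, 539.7 and 385 CPM with PBS and 2398, 2152 and 677 CPM with IFNγ, and the neuropeptide gene Gal at 181, 16.9 and 76.7 CPM with PBS and 1017, 2153 and 38.3 CPM with IFNγ, with 1 IFNγ library inside the PBS range in each. Counts of tubulin genes are uncertain because their coding sequences are much alike. In 5 of 31 genes all IFNγ libraries were higher (16.1%, against 6.15% of all genes tested). In 1, Nrn1, all were lower (170.2, 138 and 171 CPM with PBS against 109, 135 and 95.5 CPM with IFNγ), as in 3.81% of all genes tested. Without PBS replicate 2 alone the list had 6 genes under the unadjusted p, all higher with IFNγ, as were 752 of all 13487 genes. The median was then 0.92, and without replicates 1 and 2 it was 1.05.

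Ganglion cell markers were also higher at the median. Over 19 markers tested the median was 0.79, and 1.03 without PBS replicates 1 and 2. Rbpms, an RNA-binding protein used to label the cells, stood at 32.4, 97.3 and 105 CPM with PBS and at 199, 277 and 131 CPM with IFNγ, without overlap (1.37 ± 0.50, edgeR adjusted p = 0.729). Tubb3, in the marker list and also a neuronal tubulin, stood at 902, 1047 and 227 CPM with PBS and 2232, 2371 and 686 CPM with IFNγ. Spp1, a marker of some ganglion cell types that regenerate well, went the other way, at 1365, 335 and 548 CPM with PBS and at 0.818, 38.3 and 0.242 CPM with IFNγ. It was also at 0 in 1 wild-type library of each treatment. The part of the neurons' share of RNA in the growth genes' values was not tested. Genes with a mean over 1000 CPM in the knockout groups, 71 in all, also had a positive median (0.50). In 20 of them all IFNγ libraries were higher and in 1 all were lower, against 6.15% and 3.81% of all genes tested. These 71 genes include Stmn2, Gap43, Ecel1 and Tubb3, and the cut itself uses the IFNγ libraries. Whether the shift was particular to the growth genes therefore cannot be told from them.

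**Figure D4:**
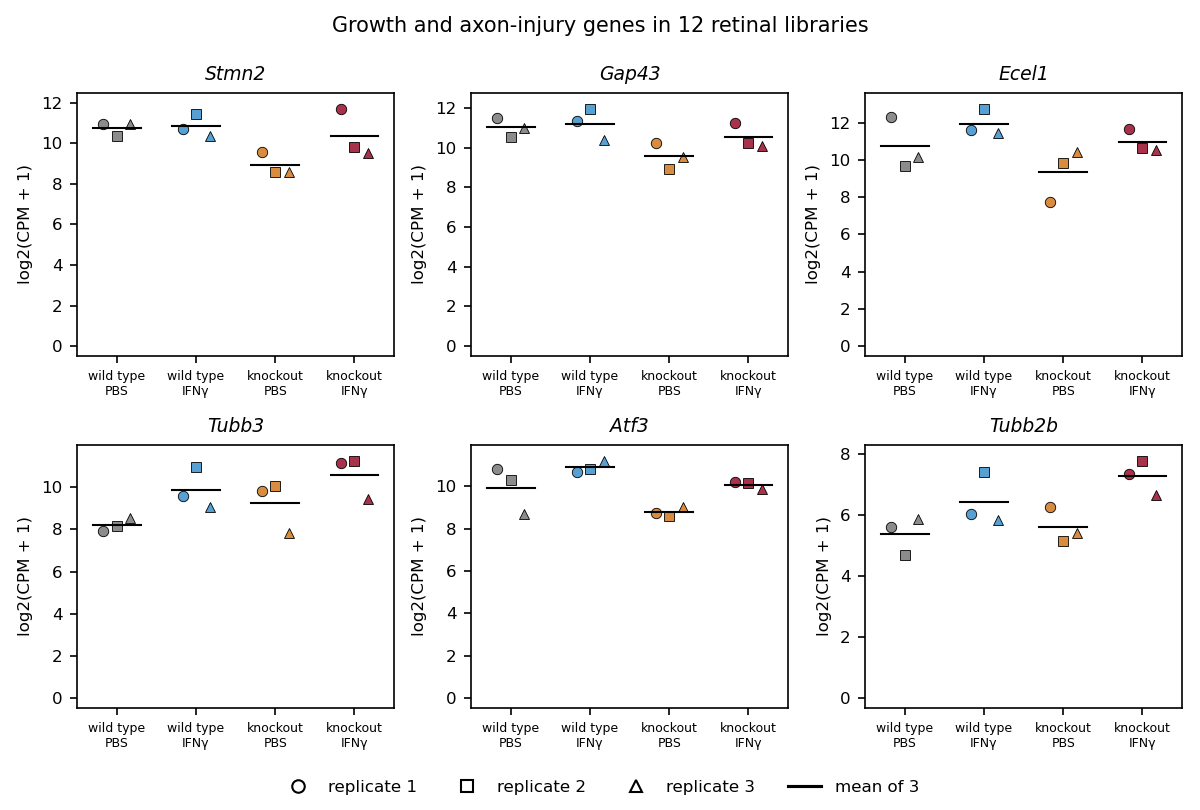
Level of 6 growth and axon-injury genes as log2(CPM + 1) in the 12 retinal libraries, by group; points are libraries and bars are means of 3. Atf3, Ecel1 and Tubb2b do not overlap between the knockout groups, and Stmn2, Gap43 and Tubb3 do.

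Lists of growth control and stress had medians below 0 with all libraries. Growth signalling genes and KLF brakes had a median of -0.27 over 11 genes, and -0.41 without PBS replicates 1 and 2. Rps6, a ribosomal protein downstream of mTOR, stood at 189, 134 and 241 CPM with PBS and 155, 238 and 156 CPM with IFNγ. Tsc2, an mTOR inhibitor, stood at 8.63, 148 and 181 CPM with PBS and 146, 36.7 and 139.9 CPM with IFNγ. Immediate early genes had a median of -0.35 over 9 genes, which turned to 0.43 without PBS replicates 1 and 2 and to 0.12 without replicate 2 alone. Egr1 stood at 507, 494 and 343 CPM with PBS and 59.8, 427 and 285 CPM with IFNγ and Dusp1 at 313, 309 and 195 CPM with PBS and 116, 205 and 321 CPM with IFNγ, while Arc, a synaptic gene of this class, was higher in all IFNγ libraries (11.1, 8.0 and 1.68 CPM with PBS against 14, 71.5 and 43.2 CPM with IFNγ, edgeR adjusted p = 0.729).

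Genes of the integrated stress response had a median of -0.32 over 14 genes (-0.15 without PBS replicates 1 and 2). Ddit3, the factor CHOP, stood at 1196, 1229 and 1611 CPM with PBS and 202, 771 and 1798 CPM with IFNγ, and Asns, asparagine synthetase, at 884, 376 and 759.8 CPM with PBS and 389, 713 and 594 CPM with IFNγ. ER chaperones had a median of -0.06 over 14 genes (0.15 without them), with Hspa5 at 409, 435 and 472 CPM with PBS and 270.1, 231 and 516 CPM with IFNγ. Axon injury and neuronal death genes had a median of -0.25 over 18 genes (-0.30 without them), and Tnfrsf12a, a receptor induced by injury, stood at 275, 286 and 368 CPM with PBS and 109.6, 242 and 383 CPM with IFNγ. Bcl2l11, the pro-apoptotic protein Bim, was the 1 gene of those 18 under an unadjusted p of 0.05 (edgeR adjusted p = 0.729). It stood at 30, 34.2 and 61.6 CPM with PBS and at 2.29, 0.193 and 11.1 CPM with IFNγ, without overlap, and was named after its values were seen. Of all genes tested, 2.16% were lower under that p. In that list 2 genes were lower and 1 higher without overlap, against 3.81% and 6.15% of all genes tested. In the integrated stress list 1 of 14 was lower under that p, and 2 were lower without overlap.

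The smallest p-values of the comparison, none of which passed, belonged to genes outside the lists. Heg1, a transmembrane protein of the cerebral cavernous malformation pathway, was at 0 in the 3 PBS libraries and at 20.6, 41 and 18.6 CPM with IFNγ, at least 155-fold higher (adjusted p = 0.0644). It was at 33.2, 25.6 and 77.2 CPM in wild type with PBS and at 44, 15.6 and 5.27 CPM in wild type with IFNγ. The 3 knockout PBS libraries differ here from all other 9. Cdr1os, a long non-coding RNA opposite Cdr1, had the same order, at 1.01, 1.56 and 0 CPM with PBS, 83.3, 42.1 and 157 CPM with IFNγ, and 36.9 to 81.2 CPM in the 6 wild-type libraries. Whether counting used the strand is not given in the labels, so the antisense partner's reads cannot be told apart. Its adjusted p was 0.151 with all libraries and 0.0147 without PBS replicates 1 and 2.

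Robo2, the receptor for the axon guidance factor Slit, stood at 1.51, 2.23 and 2.4 CPM with PBS and at 12.9, 27 and 26.6 CPM with IFNγ, and at 22.1 to 76.2 CPM in wild type. Proser1 stood at 0.112, 0.421 and 0.894 CPM with PBS and 15.1, 23.1 and 95.1 CPM with IFNγ and Zmat1, a zinc finger gene, at 0.056, 0 and 0 CPM with PBS and 11.1, 52.3 and 9.08 CPM with IFNγ. Nfe2l2, the antioxidant regulator Nrf2, was called without PBS replicates 1 and 2, at 0 CPM in PBS replicate 3 and 50.8, 66.5 and 73.4 CPM with IFNγ. The omitted libraries held 27.7 and 13.7 CPM. Genes at 0 in every library of 1 group and at 3 or more counts in the other 9 libraries numbered 7 for knockout PBS, 2 for knockout IFNγ, 4 for wild-type PBS and 3 for wild-type IFNγ.

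Among lower values, Rab7b, a GTPase of late endosomes, was at 17.6, 52.1 and 24.1 CPM with PBS and at 0 in all IFNγ libraries, at least 151-fold lower (adjusted p = 0.526). Nup43, a nuclear pore protein, was at 12.4, 8.79 and 15.8 CPM and at 0, at least 59.7-fold lower. Dusp5, a phosphatase of ERK, was at 8.4, 55.3 and 35.2 CPM with PBS and 0, 0.129 and 0 CPM with IFNγ. Grin1, the obligate NMDA receptor subunit, stood at 193, 61.2 and 74.9 CPM with PBS and at 23.3, 26.1 and 16.3 CPM with IFNγ, and Wwc2 at 65.7, 30.6 and 8.77 CPM with PBS and 2.05, 1.09 and 3.63 CPM with IFNγ. Grin1 is the only one of these 5 that was detected in every knockout library at over 15 CPM.

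Whether IFNγ acted differently in knockout and wild-type cells was tested as the difference between both effects, which contains the knockout comparison itself. No gene of 13487 passed with edgeR (0%), 721 had an unadjusted p under 0.05, and DESeq2 called 329. For Igtp the difference of effects was -1.40 ± 2.17 (adjusted p = 1), and for Stmn2 1.57 ± 0.74 (adjusted p = 0.926). B2m stood at 102, 446 and 125 CPM in wild type with PBS and at 1591, 3472 and 1309.5 CPM in wild type with IFNγ, and its difference of effects was -2.04 ± 0.84 (adjusted p = 0.868). The smallest p-values on the lower side included interferon genes at 0 in wild-type PBS. Oasl2 went from 0 to 9.54, 80.7 and 118 CPM with IFNγ in wild type (difference of effects -12.12 ± 2.04, adjusted p = 0.249). Psmb9, an immunoproteasome subunit, went from 0 to 9.3, 11.3 and 3.9 CPM in wild type, against 21.5, 47.4 and 19 CPM with PBS and 54.9, 16.9 and 36.2 CPM with IFNγ in knockout cells (-9.66 ± 1.61, adjusted p = 0.249). Such fitted values depend on the prior count and are no bound.

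Rab7b and Dusp5 were the other genes with the smallest p-values on that side (adjusted p = 0.195 and 0.306). On the higher side these were Heg1 and Cdr1os (adjusted p = 0.105 and 0.369), Zswim8 and Pcdhgb1, a protocadherin. Zswim8 stood at 71.8, 47.4 and 34.3 CPM with PBS and 5.17, 7.59 and 9.54 CPM with IFNγ in wild type, and at 15.7, 14.7 and 21.2 CPM with PBS and 34, 27.8 and 81.8 CPM with IFNγ in knockout cells. Pcdhgb1 stood at 54.7, 14.6 and 9.88 CPM with PBS and 0, 0 and 0.372 CPM with IFNγ in wild type, and at 0 with PBS and 44.9, 0 and 23.9 CPM with IFNγ in knockout cells.

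The precision of a gene's difference followed its level. Among 5893 genes with a mean under 10 CPM over the knockout groups, the median standard error of the log2 difference was 2.61. It was 0.90 in 6376 genes at 10 to 100 CPM, 0.45 in 1147 genes at 100 to 1000 CPM and 0.38 in the 71 above. Differences of the low interferon genes were thus not detectable at this spread unless very large, and a missed threshold does not show that they were alike. Single genes could lie far from the median of their level. Igtp, at means of 198 CPM with PBS and 177 CPM with IFNγ, had a standard error of 1.52. The detection floor of 3 counts was 0.168 to 0.246 CPM in the knockout libraries and covers counting error only.

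**Figure D5:**
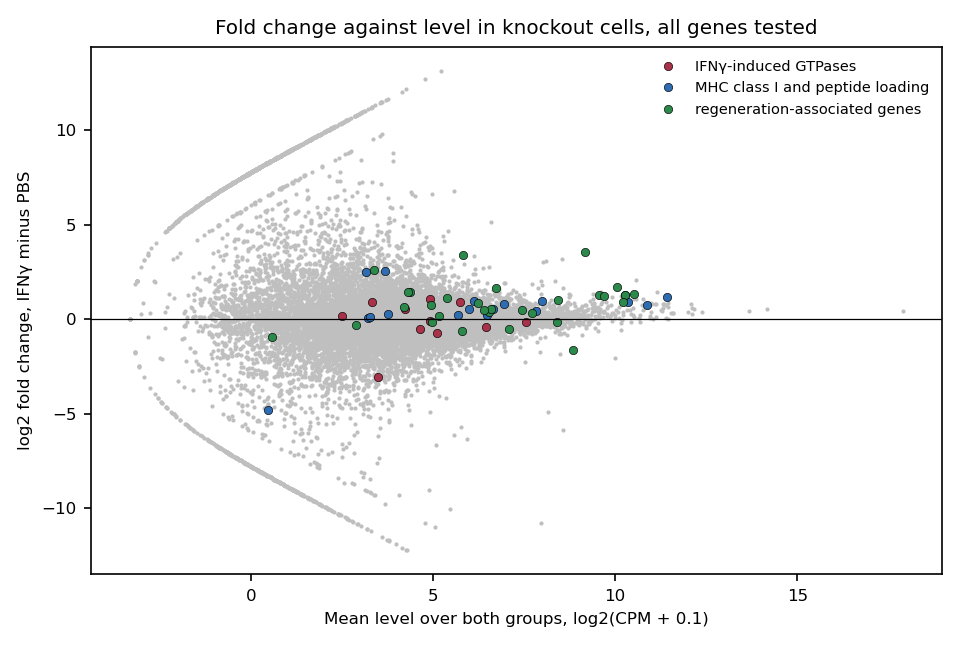
Log2 fold change (knockout IFNγ minus knockout PBS) of the 13487 genes tested against their mean level, with 3 gene lists marked; the curved outer edges are genes at 0 in every library of a group. The spread narrows with level, with a median standard error of 2.61 under 10 CPM and 0.38 over 1000 CPM, and the marked genes lie within the cloud or at its edge.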

How the data were processed

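RNA of picked retinal ganglion cells was measured by smart-seq2 in 12 libraries, 3 in each of 4 groups. The deposited table holds raw counts, 1 row for each gene symbol. Per the submitters' processing notes, the authors used Trim Galore, STAR and the GRCm38 (mm10) build. The versions, the counting program and its strand setting are not given in the labels. The last row has no name. It holds the sum of its column in 12 of 12 libraries, thus 50% of all counts in the file, and was left out. No 2 libraries were identical.

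The main test was edgeR 4.0.16 in R 4.3.3 on all 12 libraries: filterByExpr by group (minimum count 10, minimum total 15), TMM, a robust quasi-likelihood fit, and Benjamini-Hochberg adjusted p under 0.05. The contrasts were knockout IFNγ minus knockout PBS, and that difference minus the wild-type one. Levels are CPM over tested genes with TMM. Fitted log2 values use a prior count of 0.125. Values after ± are standard errors, taken as the absolute log2 difference over the square root of the test's F. The 95% intervals are symmetric t intervals built on them. Genes at 0 in a group have a bound from 3 counts per library. The tests were tested on simulated data. Limma 3.58.1, DESeq2 1.42.0 and the other alternatives are in the closing section.

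The 16 pathway lists, 12 marker lists and the named genes were chosen with earlier results of these data known. Named are Ptpn2, Igtp, Stmn2 and Gap43, and up to 15 genes per direction that passed. Where fewer than 5 passed, the 5 smallest p-values per direction with a mean of 5 CPM and no overlap were named. To these come up to 4 called genes of each list, or otherwise the 2 with the highest level, and 4 per direction for the difference between genotypes. Genes named beyond that were picked after their values were seen. A gene of the signalling list is not reported here. The ganglion table of the series was not used.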

Additional observations from a re-analysis of the deposited data

How the results depend on the processing

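With the main settings 0 genes passed for IFNγ in knockout cells. The count was 2 without the low count filter (Heg1 and Cdr1os), 316 with DESeq2, 1 with limma-voom and sample quality weights (Rab7b, lower), and 2 without knockout PBS replicates 1 and 2. It was also 2 there on the same 13487 genes, a setting added after the data were seen. Leaving out each library in turn gave 0 to 3 genes: Thoc2, Ikbip and Inpp5f without knockout PBS replicate 2, Cdr1os without replicate 3, and Heg1 without wild-type IFNγ replicate 3. For the difference between genotypes, main count 0, the values were 4 without the filter, 329 with DESeq2, 1 with limma-voom, 1 with a detected-gene covariate and 2 without both PBS libraries. Leaving out single libraries gave 0 in every case. Of the 192 list members in the fit DESeq2 called 3, against 0 in the main fit. Of all genes with a DESeq2 adjusted p it called 2.47%. Over the members of the 16 pathway lists the median log2 difference was 0.22 in the main fit and -0.01 without knockout IFNγ replicate 1. It was 0.21 without knockout IFNγ replicate 2 and 0.31 without replicate 3. Under an unadjusted edgeR p of 0.05 were 17 of 192 members in the main fit and 11 of 196 without knockout IFNγ replicate 1. Over all genes tested these counts were 879 of 13487 and 687 of 14747. The cause of these shifts was not tested. DESeq2 size factors in edgeR, a stricter filter, a fit of both groups alone and omission of CT010467.1 kept each count they could give at 0. The median of all genes was 0.22 with limma-voom, 0.12 with the covariate, and 0.29 without both PBS libraries (0.36 on the same genes).

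With the replicate number as a block, 0 genes passed and 593 had an unadjusted p under 0.05, against 879 without it. Deviations of same-numbered libraries correlated at -0.0028, -0.0162 and 0.0557, and those of differently numbered libraries at -0.0589 to 0.0582. With 3 libraries in a group these values cannot decide whether the numbers pair the samples. Of 60 named genes with a test, 32 kept 1 sign in every alternative that gave them a value (23, or 21 for Pcdhgb1), 28 had another sign in at least 1, and 11 passed in at least 1. Igtp had another sign in 4 of 23 (-0.77 to 2.12), while Stmn2 (0.70 to 2.09) and Gap43 (0.48 to 1.35) kept theirs. Depth, the number of libraries and their spread all limit what can be detected, and their parts were not compared.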
